A study of Mus musculus with 24 samples.

Results

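The nuclear-encoded genes of the mitochondrial respiratory chain were followed in mouse liver across the circadian day in wild-type (WT) mice and in mice without a rhythmic Bmal1 promoter. Genes were taken by name from the families Nduf (complex I), Sdh (complex II), Uqcr (complex III), Cox4 to Cox8 (complex IV) and Atp5 (complex V, ATP synthase), leaving out names marked as pseudogenes. Among 54733 genes in the files, 88 had such a name, and the set described here is the 81 that were selected on level, by a mean across the 24 libraries of no less than 1 FPKM. FPKM counts fragments relative to transcript length and to the size of the library, so it is a level per length and can be set side by side between genes. Because these measured levels chose the members, levels are given below as a description. Of the 7 genes left out, Cox6b2 (mean 0.247 FPKM), Cox4i2 (0.0772 FPKM) and Cox6a2 (0.0260 FPKM) lay nearest to the limit, and the members just inside it were Ndufa4l2 (1.32 FPKM), Cox7a1 (1.93 FPKM) and Atp5s (3.28 FPKM).

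All mice were C57BL/6 males. The mutant (ΔRRE) was homozygous for a CRISPR-Cas9 deletion that removed both ROR/REV-ERB response elements of Bmal1, from 1 of the mouse lines made, and the WT mice were littermates. Livers were taken in constant darkness at projected circadian times CT2, CT6, CT10, CT14, CT18 and CT22, with 2 libraries of poly(A)-selected RNA per genotype and time point, which gives 12 WT and 12 ΔRRE libraries. The deletion is carried in the germline and so is not limited to hepatocytes. The labels do not say outright that replicates are separate animals, and the p-values measure the spread between these libraries. In whole liver, fewer cells of a type and less RNA per cell cannot be told apart.

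The respiratory chain passes electrons from NADH (complex I) and succinate (complex II) through ubiquinol and complex III to cytochrome c and oxygen (complex IV), and the proton gradient built on the way drives ATP synthase (complex V). Most subunits are encoded in the nucleus and imported, while a small core of the largest hydrophobic subunits is encoded in mitochondrial DNA, so each complex except complex II needs both genomes. Hepatocytes are rich in mitochondria, and the nuclear genes are known targets of the transcription factors NRF1, GABP (an ETS factor) and ERRα, a nuclear receptor that works with PGC-1α.

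Promoter windows from RefSeq (build GRCm38.p6, 250 bases before to 50 bases after the start) were matched for 65 of the 81 genes. The 8-letter core of the NRF1 motif, CGCATGCG, was present in 8 of these 65 windows (12.3%), compared with 4.21% of windows of all expressed genes and 1.91% of all windows. The ETS motif CCGGAAG was found in 15 (23.1%, compared with 19.9% of expressed genes), the nuclear receptor half-site AGGTCA in 15 (23.1%, compared with 12.8%), the CCAAT box in 28 (43.1%, compared with 39.4%) and the E-box CACGTG, the site of the CLOCK-BMAL1 complex, in 6 (9.23%, compared with 10.7%). Both strands were searched, none of these motifs contains another, and a match describes letters and not a bound site. The windows below run to 10 bases after the start and carry every match in capitals. They are shown for 1 gene with the NRF1 core in each of complexes I, III, IV and V, to show where it lies in promoters that hold it, and for Atp5s, the only gene called rhythmic below, which RefSeq lists as Dmac2l.
Ndufa8, chr2:36049329-36049588, minus strand: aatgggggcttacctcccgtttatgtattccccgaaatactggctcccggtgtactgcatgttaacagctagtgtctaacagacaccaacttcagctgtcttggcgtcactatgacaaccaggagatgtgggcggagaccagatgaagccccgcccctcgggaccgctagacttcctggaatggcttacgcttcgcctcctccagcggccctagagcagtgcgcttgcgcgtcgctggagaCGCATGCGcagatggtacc
Uqcr11, chr10:80406812-80407071, minus strand: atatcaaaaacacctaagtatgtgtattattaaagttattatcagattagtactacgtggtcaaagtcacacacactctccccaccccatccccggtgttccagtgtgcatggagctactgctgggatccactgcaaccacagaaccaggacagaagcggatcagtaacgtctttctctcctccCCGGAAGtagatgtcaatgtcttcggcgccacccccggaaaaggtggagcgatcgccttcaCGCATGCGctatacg
Cox6a1, chr5:115348949-115349208, minus strand: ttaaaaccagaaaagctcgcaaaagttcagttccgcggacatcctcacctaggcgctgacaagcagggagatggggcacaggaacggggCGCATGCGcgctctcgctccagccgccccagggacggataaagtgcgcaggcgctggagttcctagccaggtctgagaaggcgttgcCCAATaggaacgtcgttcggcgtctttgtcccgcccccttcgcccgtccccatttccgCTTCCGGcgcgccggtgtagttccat
Atp5l, chr9:44920733-44920992, minus strand: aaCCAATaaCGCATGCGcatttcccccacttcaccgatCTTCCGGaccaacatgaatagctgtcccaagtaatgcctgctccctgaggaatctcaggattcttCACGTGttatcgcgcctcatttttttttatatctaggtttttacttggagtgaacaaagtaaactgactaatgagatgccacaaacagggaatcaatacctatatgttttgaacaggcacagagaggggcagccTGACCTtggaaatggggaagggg
Atp5s, chr12:69724695-69724954, plus strand: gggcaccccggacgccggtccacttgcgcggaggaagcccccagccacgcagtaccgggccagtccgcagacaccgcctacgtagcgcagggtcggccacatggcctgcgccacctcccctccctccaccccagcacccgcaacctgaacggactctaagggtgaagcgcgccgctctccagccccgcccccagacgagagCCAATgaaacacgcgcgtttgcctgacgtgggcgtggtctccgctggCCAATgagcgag
The NRF1 core began 9 bases before the start in Ndufa8, 5 bases before it in Uqcr11, 161 bases before it in Cox6a1 and 241 bases before it in Atp5l. In Atp5s the window held neither the NRF1 core nor the ETS motif and showed CCAAT boxes that began 49 and 2 bases before the start. The Atp5l window was the one among those shown that held all 5 kinds of motif.

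The mutation was visible in its target. Bmal1 (listed as Arntl) ran from 0.0919 FPKM at CT10 to 13.2 FPKM at CT2 over the WT libraries and stayed between 2.1 and 4.21 FPKM in every ΔRRE library. All 8 hepatocyte markers were expressed, with a summed level of 42153 to 58378 FPKM in WT and 41175 to 54556 FPKM in ΔRRE. None of 10 skeletal muscle markers reached a mean of 1 FPKM and the brown fat marker sum never passed 0.320 FPKM. The files hold FPKM without read counts, so the number of fragments behind each value is unknown. The summed level of erythroid markers was at most 1537 FPKM in WT libraries, whereas 4 ΔRRE libraries lay above this, with 4451 FPKM in CT14 replicate 1, 4322 FPKM in CT10 replicate 1, 2062 FPKM in CT18 replicate 1 and 1561 FPKM in CT22 replicate 2. All 5 erythroid markers tested had a higher mean in ΔRRE (median log2 difference 0.69), as did 65.5% of all expressed genes. Of the 5, 4 were higher at an unadjusted p under 0.05, against 7.16% of all genes. None was called, against 0% of all genes. Without CT10 and CT14 replicate 1, the median log2 difference of the respiratory chain genes was 0.00, and the counts of called genes were as given below, except that the joint rhythm call of Atp5s was lost.

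The 81 genes together made up 1.59 to 1.99% of all FPKM in WT libraries (median 1.71%) and 1.66 to 2.00% in ΔRRE libraries (median 1.79%). Median levels over the day and both genotypes were 71.4 FPKM for the 39 genes of complex I, 135 FPKM for the 4 of complex II, 176 FPKM for the 8 of complex III, 179 FPKM for the 13 of complex IV and 148 FPKM for the 17 of complex V. Genes of complex I were thus the least abundant per length, although single genes ranged in level from 1.32 to 218 FPKM within it.

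**Figure D1:**
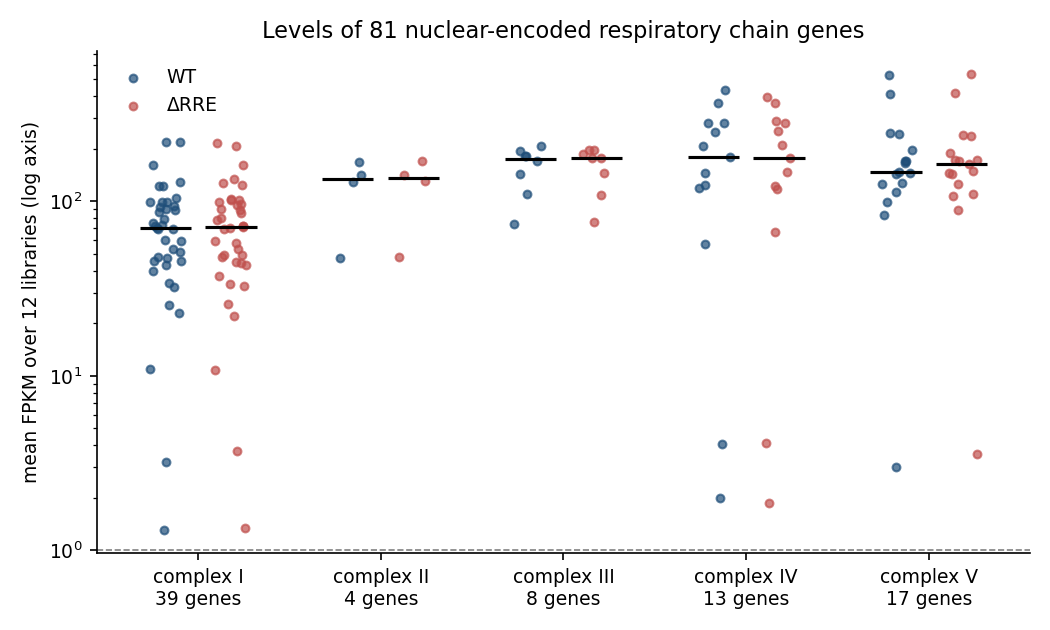
Mean level of each of the 81 genes over 12 WT (blue) and 12 ΔRRE (red) libraries, in FPKM on a log axis, by complex. Each point is 1 gene, the black bars are medians over genes and the dashed line is the limit of 1 FPKM. The 2 genotypes gave nearly the same picture in each complex.

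Atp5b, the catalytic β subunit of ATP synthase, had the highest level of the set. It ranged from 485 to 568 FPKM in WT (median 527) and from 481 to 577 FPKM in ΔRRE (median 544). Atp5g3, which encodes a precursor of the ring-forming c subunit, followed with 370 to 503 FPKM in WT (median 397) and 371 to 452 FPKM in ΔRRE (median 418). In both genes the ranges of the genotypes overlapped almost entirely. Cox4i1, a regulatory subunit of cytochrome c oxidase, was equally abundant but far less even, with 251 to 550 FPKM in WT (median 449) and 281 to 545 FPKM in ΔRRE (median 393). Its replicates parted widely, as at CT22 in WT (445 and 251 FPKM) and at CT2 in ΔRRE (529 and 288 FPKM).

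In complex I, Ndufb9, an accessory subunit of the membrane arm, ranged from 193 to 257 FPKM in WT (median 214) and from 191 to 245 FPKM in ΔRRE (median 218). Complex II is the enzyme shared with the citric acid cycle. Sdha, the flavoprotein that oxidises succinate, lay between 155 and 182 FPKM in WT and between 147 and 190 FPKM in ΔRRE. The iron-sulfur subunit gene Sdhb lay between 114 and 171 FPKM in WT and between 116 and 157 FPKM in ΔRRE. The membrane anchors differed in level, with means of 129 ± 9.90 FPKM (SD, n = 12) in WT and 131 ± 8.78 FPKM (SD, n = 12) in ΔRRE for Sdhd, but 47.4 ± 3.83 FPKM (SD, n = 12) and 47.8 ± 2.67 FPKM (SD, n = 12) for Sdhc. In complex III, the small subunit genes Uqcr11 (167 to 258 FPKM in WT, 173 to 228 FPKM in ΔRRE) and Uqcr10 (173 to 228 FPKM in WT, 171 to 217 FPKM in ΔRRE) were the most abundant.

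For the Cox6a, Cox6b, Cox8 and Cox4 subunits, one isoform carried nearly all of the level. The liver-type genes Cox6a1 (mean 363 FPKM in WT and 366 FPKM in ΔRRE), Cox6b1 (208 and 209 FPKM) and Cox8a (281 and 280.5 FPKM) were abundant in every library. Their counterparts known from muscle, heart or testis were near the floor, since Cox6a2 was listed at 0 in 11 of 12 libraries of each genotype, Cox8b in 10 WT and 12 ΔRRE libraries and Cox6b2 in 4 of each, with no library of Cox6b2 above 1.23 FPKM. Cox4i2, the hypoxia-responsive partner of Cox4i1, was listed at 0 in 7 WT and 6 ΔRRE libraries and stayed at or below 0.334 FPKM. The 3 remaining names, Cox7b2, Cox8c and Ndufa11b, were at 0 in all libraries.

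The Cox7a family was mixed. Cox7a2, the common form, averaged 145 ± 12.7 FPKM (SD, n = 12) in WT and 148 ± 19.1 FPKM (SD, n = 12) in ΔRRE, and Cox7a2l, a factor that joins complexes III and IV into supercomplexes, averaged 56.5 ± 10.9 FPKM (SD, n = 12) and 66.6 ± 13.4 FPKM (SD, n = 12). Cox7a1, the heart and muscle form, lay between 0 and 4.45 FPKM in WT (median 1.98) and between 0.933 and 3.70 FPKM in ΔRRE (median 1.62). Its highest and its lowest library were the 2 replicates of one group, WT at CT14. Ndufa4, named for complex I but now known as a subunit of complex IV, lay between 178 and 330.0 FPKM in WT and between 182 and 260 FPKM in ΔRRE, whereas its hypoxia-induced relative Ndufa4l2 never passed 2.41 FPKM. All 3 genes for the c subunit were expressed, at means of 414, 98.5 and 83.8 FPKM for Atp5g3, Atp5g1 and Atp5g2 in WT and 415.5, 110 and 88.8 FPKM in ΔRRE.

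Of the 81 genes, 78 have a protein-coding transcript in the GENCODE M21 annotation. The other 3, Ndufb4c (mean 10.9 FPKM), Cox6c2 (4.11 FPKM) and Ndufs6b (3.46 FPKM), are listed there only as processed pseudogenes, although their names do not show it. Their transcripts match the parent gene over their whole length, with 390 of 390 bases identical for Ndufb4c and Ndufb4, 224 of 231 for Cox6c2 and Cox6c, and 336 of 348 for Ndufs6b and Ndufs6. Reads from these parents and copies may have been split in the authors' counting, so the values of both are uncertain. The set is also short, with a median longest transcript of 1001 bases compared with 3014 bases over all expressed genes.

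The first comparison asked whether the mean level over the day differed between ΔRRE and WT. No gene of the set was called (limma, Benjamini-Hochberg adjusted p under 0.05), and the same held for all 11244 expressed genes, of which 0% were called. At an unadjusted p under 0.05, 3 of the 81 genes (3.70%) were counted, against 8.91% of all genes. All 3 were higher in ΔRRE, a direction that 7.16% of all genes showed at this limit, and none was lower, against 1.75%. The median log2 difference (ΔRRE minus WT) over the set was 0.01, with 50 genes higher (61.7%) and 31 lower. It was -0.03 with 18 higher (22.2%) once libraries were rescaled by the median of ratios. Over all genes the medians were 0.04 and -0.00, with 65.5% and 48.8% higher. The sign of the set's median thus depended on the scale, but on both scales it lay below the median of all genes.

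The difference was bounded for most of the set. The 95% interval of the fold between genotypes lay within 1.2-fold either way for 72 of the 81 genes and within 1.5-fold for 79. The widest interval belonged to Cox7a1, from -0.67 to 1.07 on the log2 scale, a gene of low level whose replicates differed strongly.

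**Figure D2:**
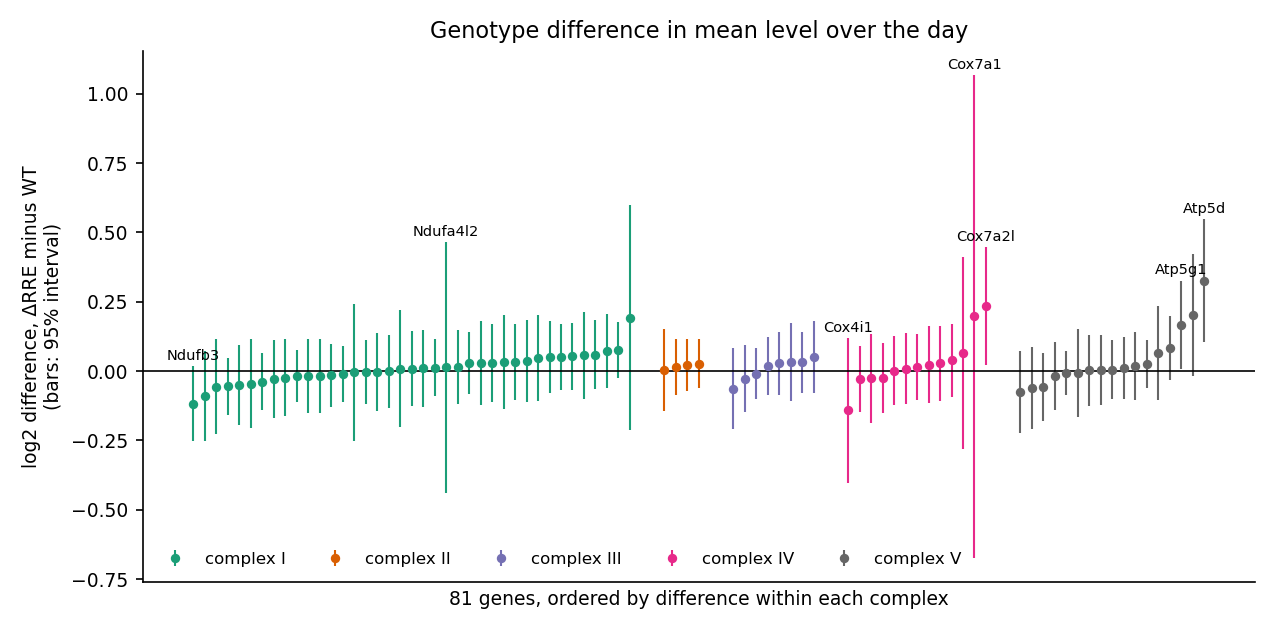
Log2 difference in mean level (ΔRRE minus WT, on the log2(FPKM + 0.1) scale) for the 81 genes, coloured by complex and ordered within it, with 95% intervals from limma over 24 libraries. Most points lie close to the zero line with short bars, while Atp5d, Cox7a2l and Atp5g1 have intervals above it and Cox7a1 has the longest bar.

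Atp5d, the δ subunit in the stalk of ATP synthase, showed the largest difference. Its level was 105 to 189 FPKM in WT (median 119) and 112 to 213 FPKM in ΔRRE (median 161.5), and the ranges overlapped. The difference was 0.33 ± 0.11 (log2, SE), and the mean of ΔRRE exceeded that of WT at 6 of 6 time points, with an adjusted p of 0.395 (unadjusted p = 0.00578). The gap was widest at CT22, where the ΔRRE libraries read 213 and 211 FPKM and the WT libraries 129 and 105 FPKM. Thus the replicates did not overlap at that time point, but at CT14 (119 and 116 FPKM in WT, 141 and 115 FPKM in ΔRRE) they did.

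Cox7a2l ranged from 41.3 to 75.5 FPKM in WT (median 54.5) and from 48 to 92.0 FPKM in ΔRRE (median 65.1). Its difference was 0.23 ± 0.10 (log2, SE) with an adjusted p of 0.526, and Atp5g1 differed by 0.17 ± 0.08 (log2, SE) with an adjusted p of 0.531. The third largest difference, 0.20 for Atp5s (adjusted p = 0.604), came with a p above the unadjusted limit. On the lower side stood Cox4i1 (-0.14, adjusted p = 0.811), Ndufb3, an accessory subunit of complex I (-0.12, adjusted p = 0.631), and Ndufa11, a further accessory subunit (-0.09, adjusted p = 0.799). None of these 6 genes had ranges that separated the genotypes.

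The second question was whether the levels followed the circadian day. A 24 h cosine and sine were fitted to log2(FPKM + 0.1), and the amplitude is the height of the fitted wave from its middle to its peak. In WT no gene of the set was called, against 10.3% of all genes, and in ΔRRE no gene was called, against 4.57%. In the joint fit of both genotypes 1 gene, Atp5s, was called, against 18.7% of all genes. At the unadjusted limit the counts were 3 of 81 in WT (27.6% of all genes), 3 in ΔRRE (22.6%) and 4 in the joint fit (32.9%). The clock itself was seen in the same libraries, since 13 of 14 clock genes were called in the joint fit.

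The waves of the set were small as well as uncalled. The median amplitude was 0.07 in WT and 0.06 in ΔRRE (log2), compared with 0.20 and 0.19 over all genes, and 74 of 81 genes in WT and 78 in ΔRRE stayed under 0.2, as did 50.5% and 53.3% of all genes. Put as a ratio, the highest time point mean exceeded the lowest by a median factor of 1.2 in WT and 1.17 in ΔRRE, compared with 1.49 and 1.5 over all genes. A ratio above 1.5 was reached by 7 genes of the set in WT and 5 in ΔRRE, and by 48.8% and 49.5% of all genes. All genes were not matched to the set in level or in spread. The median level was 104 FPKM in the set and 6.74 FPKM over all genes, and the median replicate SD was 0.17 and 0.25 (log2). The part of level and spread in these gaps was not tested. Small waves were not particular to the set. Genes of cytosolic ribosomal proteins, also abundant (median 162 FPKM), had median amplitudes of 0.10 in WT and 0.08 in ΔRRE. None of these 79 genes was called for a rhythm in WT, in ΔRRE or in the joint fit. Within the set, Ndufa4l2, the member of the lowest mean level (1.32 FPKM), had the largest ratio in both genotypes (2.65 in WT and 2.42 in ΔRRE).

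**Figure D3:**
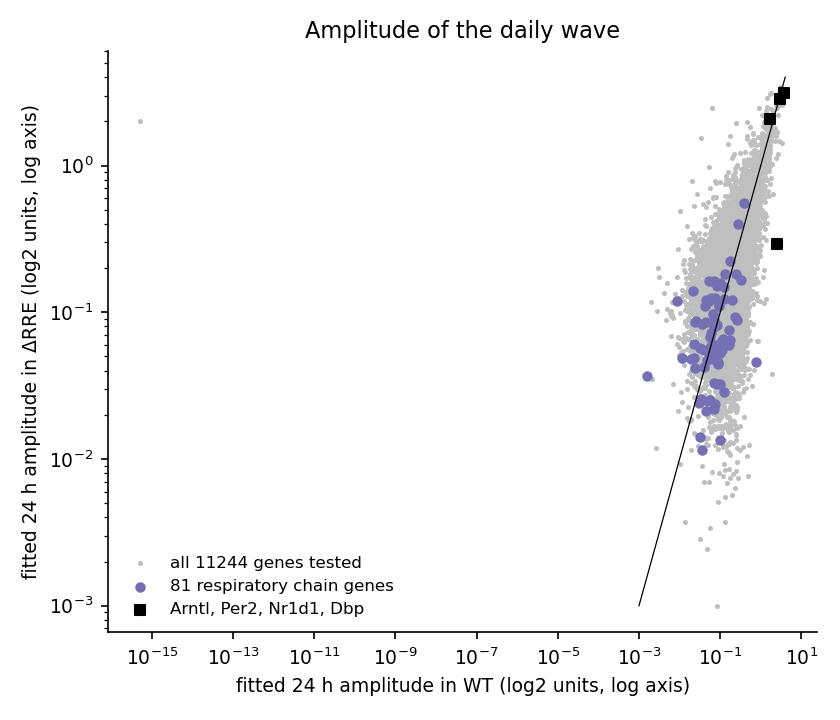
Fitted 24 h amplitude in WT (horizontal) and ΔRRE (vertical), in log2 units on log axes. Grey points are all 11244 genes tested, purple points the 81 respiratory chain genes and black squares 4 clock genes, with the diagonal marking equal amplitude. The set lies in the low part of the cloud, with medians of 0.07 and 0.06, and Arntl is the square far below the diagonal.

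The fitted peaks were nonetheless not spread evenly. In the joint fit 31 of 81 genes (38.3%) had their fitted peak between CT12 and CT16, and 19 (23.5%) between CT16 and CT20, whereas over all genes 15.3% and 14.6% fell in these windows. In WT alone 39 genes peaked between CT12 and CT16, and in ΔRRE 20 did so and 24 peaked between CT16 and CT20. These are phases of waves that did not pass the test, and they come from the same libraries, so they describe one shared tendency and not 81 separate ones. The median deviation of the set from its own mean was highest at CT14 in WT (0.06, log2) and at CT18 in ΔRRE (0.05), and lowest at CT22 in both (-0.09 and -0.03). After rescaling by the median of ratios it was highest at CT18 in both (0.10 and 0.02) and lowest at CT6 in both (-0.05 and -0.04), so the order of the time points depended on the scaling.

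Atp5s was the single exception. Its product is named as a coupling factor of ATP synthase, although the RefSeq name Dmac2l places it with complex assembly proteins. In WT the library values were 3.08 and 2.84 FPKM at CT2, 3.27 and 3.94 at CT6, 3.40 and 4.18 at CT10, 2.71 and 2.02 at CT14, 2.54 and 2.72 at CT18, and 2.83 and 2.60 at CT22. In ΔRRE they were 4.17 and 2.59 FPKM at CT2, 4.62 and 3.29 at CT6, 5.75 and 4.11 at CT10, 3.60 and 3.58 at CT14, 2.92 and 2.12 at CT18, and 3.45 and 2.35 at CT22. Both genotypes were highest at CT10, and the WT libraries at CT6 and CT10 all lay above those at the other times. The joint amplitude was 0.33 (log2) with a fitted peak at CT7.76 and an adjusted p of 0.0273. Taken alone, WT (amplitude 0.28, adjusted p = 0.147) and ΔRRE (amplitude 0.40, adjusted p = 0.133) did not pass. The gene sits near the low end of the set in level, and its call was lost without any one of 4 ΔRRE libraries, with an adjusted p of 0.0520 without CT6 replicate 1, 0.0693 without CT10 replicate 1, 0.0555 without CT18 replicate 2 and 0.0610 without CT22 replicate 2. Over the alternatives that fitted a wave to it the adjusted p of Atp5s ran from 0.0125 to 0.0847, and with time point as a factor it was not called. Ndufa4l2 (0.45, adjusted p = 0.238) and Cox7a1 (0.36, adjusted p = 0.665) had larger fitted joint amplitudes than Atp5s and Cox7a2l a smaller one (0.20, adjusted p = 0.292), and none of these was called.

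**Figure D4:**
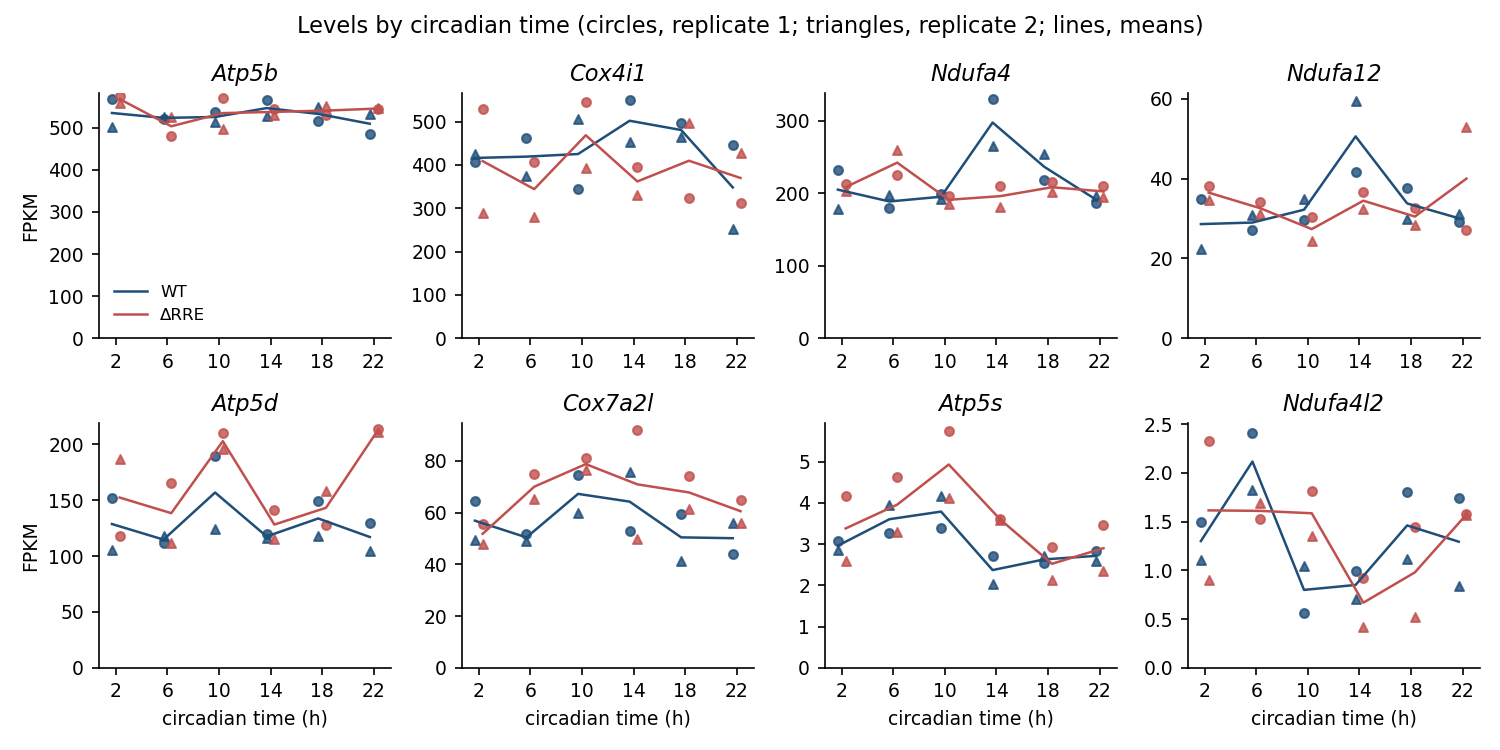
Levels in FPKM by circadian time for 8 genes, with WT in blue and ΔRRE in red, circles for replicate 1, triangles for replicate 2 and lines through the means of 2 libraries. Atp5b is flat in both genotypes, Ndufa4 and Ndufa12 are high at CT14 in WT, Atp5d is high at CT10 and CT22 in ΔRRE, and Atp5s is highest at CT10 in both.

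The third comparison asked whether the wave differed between genotypes. No gene of the set was called, and 1 of all 11244 genes was (0.00889%), namely Arntl itself. At an unadjusted p under 0.05 there were 2 genes of the set, against 2.84% of all genes, and both belong by name to complex I. Ndufa4 read 330.0 and 265 FPKM at CT14 in WT and 211 and 182 FPKM at CT14 in ΔRRE. At CT18 the WT libraries were again higher (218 and 255 FPKM) than the ΔRRE libraries (215 and 201.4 FPKM), while at CT6 the order was turned (180.3 and 197 FPKM in WT, 225 and 260 FPKM in ΔRRE). The amplitude of Ndufa4 was 0.25 in WT and 0.09 in ΔRRE, with an adjusted p for the difference of 0.9999 (unadjusted p = 0.0109).

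Ndufa12, an accessory subunit near the peripheral arm that is named here after its values were seen, behaved alike in WT. It read 41.7 and 59.5 FPKM at CT14 in WT and 36.7 and 32.3 FPKM in ΔRRE, with an amplitude of 0.33 in WT and 0.17 in ΔRRE (unadjusted p for the difference = 0.0243). Its highest ΔRRE library, 53.0 FPKM at CT22, had a replicate at 27.1 FPKM.

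Each time point was also compared on its own, with 2 libraries per genotype and a spread shared over all 12 groups. No gene of the set was called at any time, against 0.00889% of all genes at CT2, 0% at CT6, 0.0178% at CT10, 0.0267% at CT14, 0.00889% at CT18 and 0% at CT22. At the unadjusted limit the set gave 1 gene at CT2, 1 at CT6, 0 at CT10, 2 at CT14, 0 at CT18 and 2 at CT22, against 2.57%, 3.28%, 6.16%, 4.63%, 3.61% and 4.66% of all genes. The strongest was Ndufa4 at CT14, lower in ΔRRE by a log2 difference of -0.60 ± 0.15 (SE, adjusted p = 0.920). Next came Atp5d at CT22, higher in ΔRRE by 0.87 ± 0.25 (SE, adjusted p = 0.927). The others were Cox5b at CT2 (-0.40), Ndufa4 at CT6 (0.36), Atp5s at CT14 (0.60) and Atp5c1 at CT22 (0.31), of which Cox5b, a nuclear subunit of complex IV, and Atp5c1, the γ subunit that turns inside ATP synthase, are named after their values were seen.

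Single libraries shifted nearly all genes of the set together. In WT CT2 replicate 1, 77 of the 81 genes were above their own mean and the median deviation was 0.21 (log2), whereas in WT CT2 replicate 2 only 11 were above and the median was -0.14. The replicates of this group thus differed by 1.28-fold in the set as a whole, more than the medians of any groups differed from each other. The deviation was next highest in WT CT14 replicate 1 (0.17, 76 genes above their mean) and ΔRRE CT14 replicate 1 (0.14, 64 genes). At least 60 of the 81 genes fell on one side of their own mean in 15 of 24 libraries. Complexes I, III, IV and V moved with one sign in 22 of 24 libraries, and complex II joined them in 19.

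**Figure D5:**
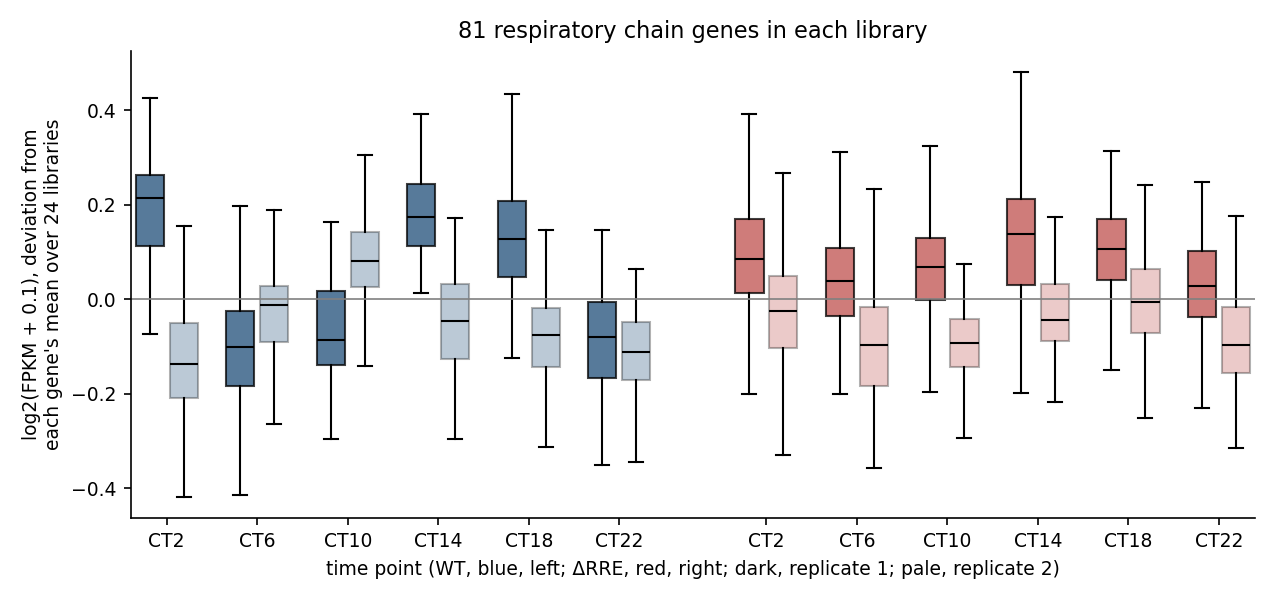
Deviation of log2(FPKM + 0.1) from each gene's mean over 24 libraries, for the 81 genes in each library. Boxes show the interquartile range with the median, whiskers reach the most extreme genes within 1.5 box heights, WT is blue, ΔRRE red, replicate 1 dark and replicate 2 pale. Whole boxes shift between the libraries of one group, from a median of 0.21 to -0.14 in WT at CT2.

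The median SD between replicates was 0.17 (log2) in the set, compared with 0.25 over all genes. The median of the set was higher in the library numbered 1 in 10 of 12 groups (4 of 6 in WT and 6 of 6 in ΔRRE). The labels give no batch for this number, and what it stands for was not tested. In a limma fit with a term for it, 35 of the 81 genes (43.2%) had an unadjusted p under 0.05, against 13.9% of all genes. After adjustment 0 genes of the set passed, against 0.08% of all genes. Shifts of whole libraries were not particular to the set. Genes of cytosolic ribosomal proteins, also short and abundant, had a median deviation of 0.08 and -0.08 in the WT CT2 replicates. Over all libraries it ran from -0.29 in WT CT22 replicate 1 to 0.26 in ΔRRE CT14 replicate 1. The ribosomal genes did not always move with the set. In WT CT6 replicate 1 the set lay at -0.10 and the ribosomal genes at 0.12, and in WT CT18 replicate 1 at 0.13 and -0.10. Genes of the citric acid cycle lay at -0.02 and -0.11 in the WT CT2 replicates. The part of RNA quality, dissection or library preparation in these shifts was not tested.

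The 13 subunits encoded in mitochondrial DNA complete complexes I, III, IV and V. Their summed level was 68452 to 106154 FPKM in WT (median 78102) and 60111 to 89259 FPKM in ΔRRE (median 73478), which is 7.60 times the sum of the nuclear set in the median WT library and 7.19 times in the median ΔRRE library. All 13 were lower in ΔRRE, whereas 65.5% of all genes were higher. The median log2 difference of the 13 was -0.17, and -0.22 after rescaling, but the libraries overlapped and none was called (0% of all genes). At an unadjusted p under 0.05, 7 of the 13 were counted, against 8.91% of all genes and 1.75% in the lower direction. The smallest p was that of mt-Nd3, a core subunit of complex I (log2 difference -0.29 ± 0.07, SE, adjusted p = 0.332). These transcripts come from shared precursors, so they are not independent of one another. In the joint fit mt-Nd3 and mt-Nd4l were called (2 of 13, 15.4%, against 18.7% of all genes), and neither was after rescaling.

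Other genes that build or serve the chain were read in the same joint fit. Among 15 complex I assembly factors 1 was called, Ndufaf4 (amplitude 0.43, adjusted p = 0.0119), and among 33 assembly factors of complexes II to V 3 were, led by Sco2, a copper chaperone of cytochrome c oxidase (amplitude 0.86, peak CT1.86, adjusted p = 0.000248). Of 7 carriers and subunits whose names fall outside the families, 2 were called. They were Etfdh, which feeds electrons from fat oxidation into ubiquinone (amplitude 0.29, peak CT2.15), and Cycs, cytochrome c (amplitude 0.21, peak CT18.3). Cyc1, a complex III subunit missed by the name rule, had an amplitude of 0.02 like the set itself.

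Among regulators of mitochondrial biogenesis 4 of 14 were called, led by Esrra, which encodes ERRα (amplitude 0.44, peak CT14.3, adjusted p = 0.000712). In the citric acid cycle 2 of 13 were called, and in coenzyme Q synthesis 4 of 13, led by Coq10b (amplitude 1.25, peak CT12.9, adjusted p = 3.7e-06). The shares in these last 3 lists ran from 15.4 to 30.8%, around the 18.7% of all genes, and 6.67% of complex I assembly factors and 9.09% of the other assembly factors lay below it, as did the 1.23% of the set. No gene of these lists was called for a genotype difference in mean level.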

How the data were processed

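Liver poly(A) RNA of WT and ΔRRE mice was sequenced as paired ends of a directional library. Per the labels, the authors trimmed reads with Trimmomatic 0.39, aligned them to mm10 with HISAT2 2.1.0 and quantified genes with StringTie 1.3.5, and deposited FPKM per gene and library, normalised for transcript length and library total. Only these FPKM values were used here, and the depth of each library is unknown. Values were joined by gene, and 103 rows that join several gene IDs were kept as 1 gene.

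Genes whose mean reached 1 FPKM (11244 of 54733) were analysed as log2(FPKM + 0.1), a scale that understates changes of low genes, with limma 3.58.1 in R 4.3.3 (intensity trend, Benjamini-Hochberg adjustment over all genes tested). The fits were genotype with time point as a factor, a 24 h cosine and sine per genotype and jointly, the difference between waves, and 6 single time point contrasts. BIO_CYCLE, used in the study for rhythms, was not run. Alternatives were the pseudocount, the filter, rescaling by the median of ratios, no trend, a replicate block, time point as a factor, a shared spread and leaving out each library. Centring on the set, leaving out both ΔRRE libraries of the highest erythroid sums, and leaving out libraries for the set's median were chosen after seeing the data. The scripts were tested on simulated data.

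Genes were named by rule: the 2 most abundant of each complex, all Sdh genes, isoform sets, called genes, the 4 largest joint amplitudes, the 3 largest differences each way, those nearest to the limit of 1 FPKM, and up to 3 of smallest p in another list. The NRF1 motif was searched by its 8-letter core. Promoters were matched by Ensembl gene ID, and failing that by symbol or by a synonym held by a single gene. Pairs of copies were aligned locally (Biopython 1.88). The members and lists were chosen with earlier results of these data known.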

Additional observations from a re-analysis of the deposited data

How the results depend on the processing

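No member was called for a genotype difference, a WT rhythm or a rhythm difference under any alternative or with any library left out. The joint rhythm count of 1 became 0 without a filter on low values, 0 with a filter of at least 5 FPKM (which removes Atp5s from the test), 0 with time point as a factor, 0 without both ΔRRE libraries of the highest erythroid marker sums, and 2 after rescaling by the median of ratios, when Ndufa4 joined Atp5s. It ranged from 0 (without ΔRRE CT6 replicate 1, CT10 replicate 1, CT18 replicate 2 or CT22 replicate 2) to 2 (without WT CT2 replicate 1). The ΔRRE rhythm count of 0 became 1 with a spread shared by both genotypes and 1 with the replicate block, in each case Atp5s, and was 0 to 0 over left-out libraries. The count at single time points ranged from 0 to 1, the 1 being Cox7a1 at CT14 without WT CT14 replicate 1, where the lone WT library listed at 0 was assumed to vary like the other groups. The cause of these changes was not tested, apart from the removal of Atp5s. The median difference of the set was 0.01 (log2), -0.03 after rescaling, and -0.01 to 0.03 over left-out libraries. The replicate numbers were not taken as pairing the samples, since same-numbered deviations correlated between -0.14 and 0.30 over 66 pairs of groups, with 20 above 0.1. In the block fit 75 of 81 genes (92.6%) were higher in replicate 1, with a median of 0.13 (log2), compared with 50.6% and 0.00 over all genes. The replicate term had an unadjusted p under 0.05 (limma) for 43.2% of the set and 13.9% of all genes. The main fits held no such term. Genes of cytosolic ribosomal proteins shifted alike, with 76 of 79 higher in replicate 1 and a median of 0.12. The shift was smaller in mitochondrial ribosomal proteins (50 of 78, 0.03), the citric acid cycle (8 of 13, 0.02), subunits encoded in mitochondrial DNA (9 of 13, 0.03) and hepatocyte markers (5 of 8, 0.04). It was larger in erythroid markers (4 of 5, 0.59). With 2 libraries per group, single time points detect large differences alone.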
